A study of Mus musculus with 4 samples.

Results

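Differentiating myocytes of the salivary gland mesenchyme are the cells of the muscle lineage that have switched on Myog, the transcription factor myogenin, and Actc1, the cardiac alpha-actin that embryonic skeletal muscle also makes. They were taken from the submandibular and the parotid mesenchyme library by 1 rule: a barcode with 500 or more genes and no more than 10% of its UMIs from mitochondrial genes that held at least 1 Myog and at least 5 Actc1 UMIs. A UMI (unique molecular identifier) marks 1 captured RNA molecule. The rule took 47 of the 4842 kept barcodes of the submandibular mesenchyme library (0.971%, 0.714 to 1.29) and 83 of the 4421 of the parotid mesenchyme library (1.88%, 1.50 to 2.32), so 130 of the 14884 kept barcodes of the whole series. The difference between libraries in this share was not tested. They were set against the muscle progenitors of the same library, defined as barcodes with at least 2 summed Myf5, Myod1 and Pax7 UMIs and no Myog UMI, of which there were 43 in the submandibular library and 86 in the parotid one. The progenitors are compared only within a library, and each library is kept apart.

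The tissue came from ICR mouse embryos at embryonic day 12, when a salivary gland is an epithelial bud inside its mesenchyme; about 10 glands of each kind were pooled for a library, and the labels list no genetic change or treatment. Dispase II separated mesenchyme from epithelium, cold bacterial protease with Accutase and Accumax gave single cells, and droplets of the 10x Chromium system captured them. The groups used were submandibular mesenchyme and parotid mesenchyme, with 1 library each, and the epithelium libraries of both glands served only to look for the same cells there. With 1 library per group no difference has a replicate check or a test. All intervals are 95% intervals that cover counting error only, not differences between embryos, litters or dissections. Intervals of summed levels and of ratios also leave out the spread between cells.

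In skeletal muscle development, progenitors that express Pax7, Myf5 and Msc divide, switch on the determination factor Myod1, and then, with Myog, leave the cell cycle, build contractile filaments and fuse into multinucleate fibres. The sarcomere that they build has thin filaments of actin, tropomyosin and troponin, thick filaments of myosin, and Z-discs of alpha-actinin and titin that anchor them. Much of the muscle of the head, though not all, arises from the mesoderm of the pharyngeal arches, and the mesenchyme around the salivary glands lies close to the forming jaw and facial muscles.

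Of 5 marker genes of these cells, Myog and Actc1 chose them and Mylpf, Tnnc1 and Acta1 appear in the comparisons that follow, so the promoters of all 5 are shown first. Each is 250 bases before to 50 bases after the RefSeq gene start on build GRCm38.p6, written 5′ to 3′ on the gene's strand. Capitals mark E-boxes (CANNTG, the site of Myod1 and Myog proteins), the CArG box of serum response factor and the TATAAA box. E-boxes and the CArG box were searched on both strands and TATAAA on the gene's strand only. By the gene positions given below, the windows of Actc1 and Mylpf lie inside these genes and not at their outer start. The Actc1 E-box and TATAAA box begin at bases 9 and 34 after the RefSeq start used.
Myog, chr1:134289754-134290053 on the plus strand: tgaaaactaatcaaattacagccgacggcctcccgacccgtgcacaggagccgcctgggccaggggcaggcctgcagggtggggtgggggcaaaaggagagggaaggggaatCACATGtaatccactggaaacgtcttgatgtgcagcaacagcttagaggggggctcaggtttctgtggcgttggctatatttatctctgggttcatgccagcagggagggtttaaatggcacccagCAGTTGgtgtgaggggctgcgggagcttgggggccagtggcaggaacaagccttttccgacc
Actc1, chr2:114052826-114053125 on the minus strand: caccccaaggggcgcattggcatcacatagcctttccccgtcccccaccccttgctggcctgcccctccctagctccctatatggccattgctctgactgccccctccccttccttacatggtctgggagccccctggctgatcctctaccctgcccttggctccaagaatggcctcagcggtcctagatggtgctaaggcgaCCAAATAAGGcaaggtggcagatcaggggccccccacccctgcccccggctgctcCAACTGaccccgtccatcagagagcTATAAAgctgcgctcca
Mylpf, chr7:127211358-127211657 on the plus strand: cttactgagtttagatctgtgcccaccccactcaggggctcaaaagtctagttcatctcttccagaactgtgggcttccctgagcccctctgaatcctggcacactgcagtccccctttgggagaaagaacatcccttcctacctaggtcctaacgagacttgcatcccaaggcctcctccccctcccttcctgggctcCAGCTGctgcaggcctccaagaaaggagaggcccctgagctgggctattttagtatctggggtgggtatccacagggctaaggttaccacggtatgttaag
Tnnc1, chr14:31208062-31208361 on the plus strand: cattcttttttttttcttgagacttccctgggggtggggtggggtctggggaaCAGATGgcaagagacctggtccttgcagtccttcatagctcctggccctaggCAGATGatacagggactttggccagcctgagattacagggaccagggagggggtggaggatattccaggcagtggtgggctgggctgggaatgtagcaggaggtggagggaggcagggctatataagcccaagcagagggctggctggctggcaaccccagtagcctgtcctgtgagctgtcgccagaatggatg
Acta1, chr8:123894726-123895025 on the minus strand: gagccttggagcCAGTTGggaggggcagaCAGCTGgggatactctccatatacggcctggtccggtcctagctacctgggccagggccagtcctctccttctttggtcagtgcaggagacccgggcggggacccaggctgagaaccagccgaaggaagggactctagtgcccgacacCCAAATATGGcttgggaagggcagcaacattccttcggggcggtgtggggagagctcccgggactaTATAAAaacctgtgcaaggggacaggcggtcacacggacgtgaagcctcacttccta
The CArG box was found in the promoters of both sarcomeric actins, Actc1 and Acta1, and the E-box in all 5. CAGCTG, the E-box with GC in its centre, was in those of Mylpf and Acta1.

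The level of a gene is given as CPM, its UMIs scaled to a total of 1e+06 over the summed cells of a class in a library, and levels are compared only within a gene. Myog and Actc1 chose the cells, so their values describe the choice. Myog (chromosome 1, 134289989 to 134292548, plus strand in GRCm38) had 1 to 185 UMIs per cell in submandibular myocytes, with a median of 32, and 1 to 133 UMIs per cell in parotid myocytes, with a median of 31. Actc1 (chromosome 2, 114047282 to 114053548, minus strand) had 6 to 309 UMIs per submandibular myocyte, with a median of 36, and 5 to 250 per parotid myocyte, with a median of 28. Only 1 submandibular and 8 parotid myocytes rested on a single Myog UMI. The other 3 markers were not used by the rule and were less even, as the plot of marker UMIs per cell shows. Mylpf, the regulatory light chain of fast myosin (chromosome 7, 127208890 to 127214298, plus strand), had a UMI in 31 of 47 submandibular and 69 of 83 parotid myocytes, with medians of 1 and 5 and maxima of 301 and 589 UMIs. Tnnc1, slow and cardiac troponin C (chromosome 14, 31208312 to 31211729, plus strand), had a UMI in 19 submandibular and 44 parotid myocytes. Acta1, skeletal alpha-actin (chromosome 8, 123891769 to 123894751, minus strand), had one in 13 submandibular and 29 parotid myocytes. Mylpf was thus detected in most myocytes of both libraries and Acta1 in a minority, and the cells are called myocytes by the rule alone.

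**Figure D1:**
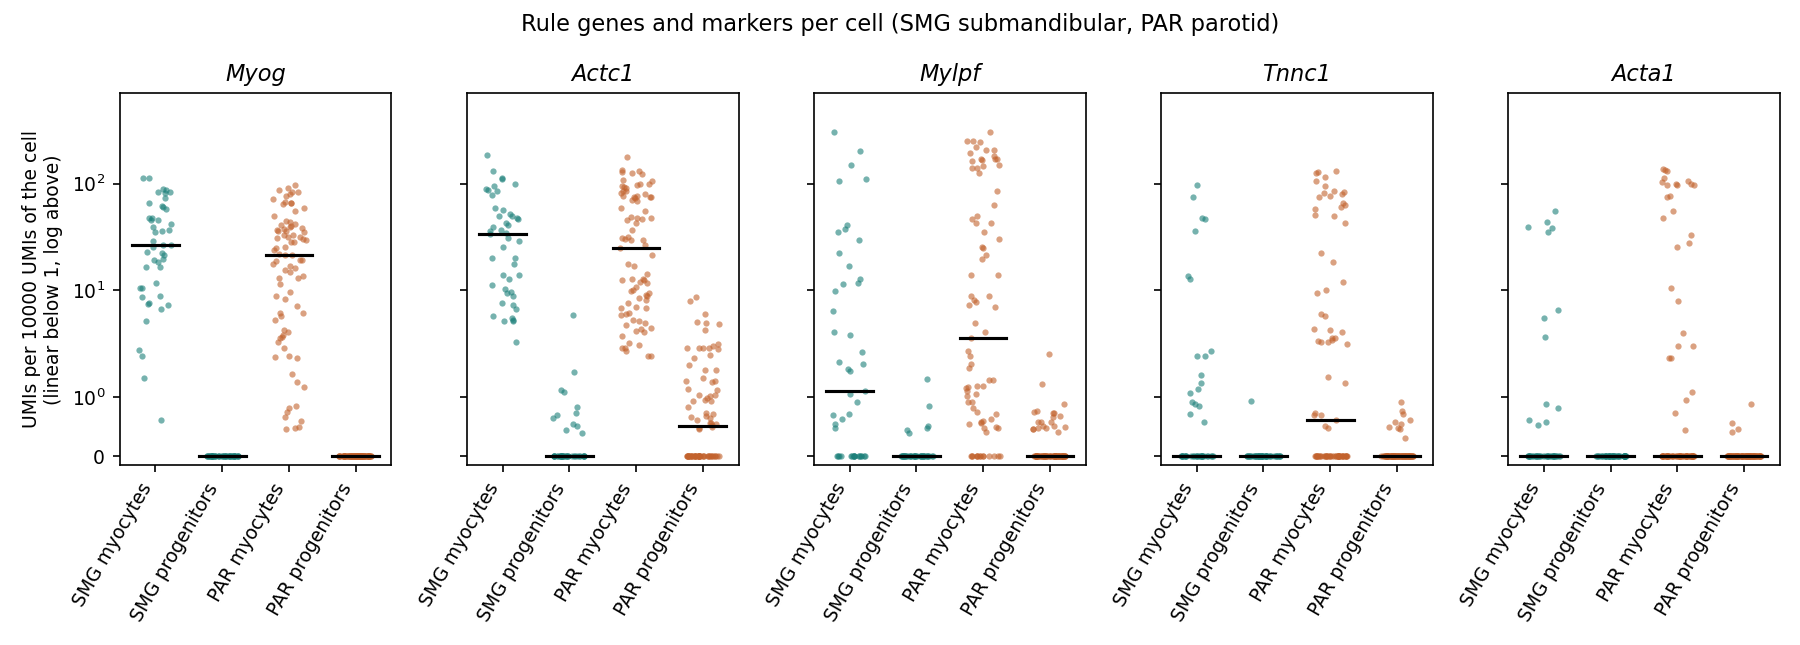
UMIs per 10000 UMIs of a cell (linear below 1, log above) for Myog, Actc1, Mylpf, Tnnc1 and Acta1 in myocytes and progenitors of the submandibular (SMG) and parotid (PAR) mesenchyme libraries; each point is 1 cell and each bar a median. Myog and Actc1 set the groups apart by the rule, while Acta1 is at 0 in most myocytes, with a UMI in 13 of 47 submandibular and 29 of 83 parotid cells.

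Myod1, the determination factor, had a UMI in 44 of 47 submandibular and in 83 of 83 parotid myocytes. Its level was 719.6 CPM in submandibular and 688 CPM in parotid myocytes. Pax7, a factor of muscle progenitors and stem cells, was found in 5 submandibular and 12 parotid myocytes, and Myf5, the early determination factor, in 4 and 20. Since the progenitors were picked by these 3 genes and by the absence of Myog, no fold is drawn from them. The Actc1 minimum divided a continuous range. Just inside it, with 5 to 9 Actc1 UMIs, lay 7 submandibular and 17 parotid cells, and just outside, with 1 to 4 Actc1 UMIs and Myog, lay 9 and 31. The minimum is a count of UMIs not scaled to depth. Median depth was 13395 UMIs inside and 4434 outside in the submandibular library, and 17388 and 16078 in the parotid one. The part of depth in this split was not tested. Mylpf stood at 22.9 CPM inside and 31.7 CPM outside the limit in the submandibular library, and at 37.1 CPM inside and 21.0 CPM outside in the parotid library. Acta1 was at 0 CPM inside and 10.6 CPM outside in the submandibular library, a single UMI, and at 6.74 CPM inside and 1.91 CPM outside in the parotid library. Myog was at 949 CPM inside and 201 CPM outside in the submandibular library, and at 374 CPM inside and 160 CPM outside in the parotid library. Cells on both sides of the limit thus had low Mylpf and Acta1 RNA.

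Below the limit, 52 submandibular and 127 parotid barcodes had Myog with fewer than 5 Actc1 UMIs. Of these, 40 and 104 had a single Myog UMI. Their summed level of 8 mesenchyme markers was 1210 CPM in the submandibular library and 1445 CPM in the parotid one, against 179.5 and 133 CPM in myocytes, 249 and 254 CPM in progenitors and 2441 and 3367 CPM in the other kept cells. How many of them hold Myog RNA of their own was not tested. In the epithelium libraries the rule found 0 of 3767 submandibular and 0 of 1854 parotid barcodes. Counting 0 as 3 barcodes, a floor and not an exact limit, would give shares of 0.0796% and 0.162%.

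The 4 libraries held 1996 to 4971 barcodes and 14004908 to 39621166 UMIs. Myocytes had a median of 12334 UMIs in the submandibular library and 14573 in the parotid one, close to the progenitors' 13857 and 16351.5 and above the 5449.5 and 5618 of the other cells. The mesenchyme libraries shared 34 barcodes, none of them a myocyte. The 5 heart muscle markers summed to 29.4 CPM in submandibular and 5.55 CPM in parotid myocytes, 31.1 and 11.5 CPM in progenitors and 2.68 and 0.348 CPM in the other cells. Gata4, Myl7 and Nppa were at 0 UMIs in the myocytes of both libraries, and the other 2 markers gave 18 UMIs in 12 submandibular and 7 UMIs in 6 parotid myocytes. The 4 smooth muscle markers summed to 2999 CPM in submandibular and 2667 CPM in parotid myocytes, 677 and 879.98 CPM in progenitors and 9.91 and 17.4 CPM in the other cells. Nearly all of this was Acta2, with 1805 of 1838 UMIs in submandibular and 3300.0 of 3361 in parotid myocytes, and Tagln gave 33 and 60 UMIs. Myh11 was at 0 in both, and Cnn1 had 0 UMIs in submandibular and 1 in parotid myocytes. The part of heart or smooth muscle in the results was not tested. A Mylpf UMI was found in 2.13% of the other submandibular cells and in 5.57% of the other parotid cells, at 3.60 and 9.54 CPM. A single submandibular progenitor held 70.6% haemoglobin UMIs, a single parotid myocyte 45.6%, and 1 submandibular myocyte 50 UMIs of endothelium markers. Their part in the results was not tested beyond leaving them out.

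Which genes went with the myocyte state was asked by comparing myocytes with progenitors. Contractile filament genes had the highest ratios in both libraries, with a calcium pump regulator (Sln), the fusion gene Tmem8c and the transcription factor gene Mef2c beside them. Ranked by the smaller of the libraries' ratios, the 12 highest genes with a mean of at least 100 CPM, genes with an unnamed symbol left out, were Sln, Tnnc2, Tnnc1, Myh3, Myl4, Mylpf, Tnni1, Myl1, Acta1, Tmem8c, Tnnt2 and Mef2c. Gm7325, left out by its symbol, had a smaller ratio of 139-fold, between those of Tnni1 and Myl1. At the other end stood Msc, Cald1, Phgdh, S100a10, Wdr43, Hmga2, Usp1, Parp1, Gnl3, Pcna, Nsun2 and Lig1, of which 6 were at least 2-fold lower in both libraries. Among them Pcna encodes the replication clamp and Lig1 a ligase of DNA replication. Among 2595 genes with a mean of at least 50 CPM in the submandibular library, 145 were at least 2-fold higher in myocytes (5.59%) and 94 at least 2-fold lower (3.62%). Among 2537 in the parotid library, 122 were higher (4.81%) and 43 lower (1.69%). Of 2354 genes measured in both, 84 were higher in both (3.57%) and 16 lower in both (0.68%). The 84 are 57.9% of the submandibular and 68.9% of the parotid genes called higher, and the 16 are 17.0% and 37.2% of those called lower. The rule used this contrast, so the counts describe it and no more. With TMM scaling, which takes most genes as unchanged, the split was 166 higher and 66 lower in the submandibular library and 148 higher and 24 lower in the parotid library. Over all these genes the median log2 ratio was -0.08 and -0.14.

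**Figure D2:**
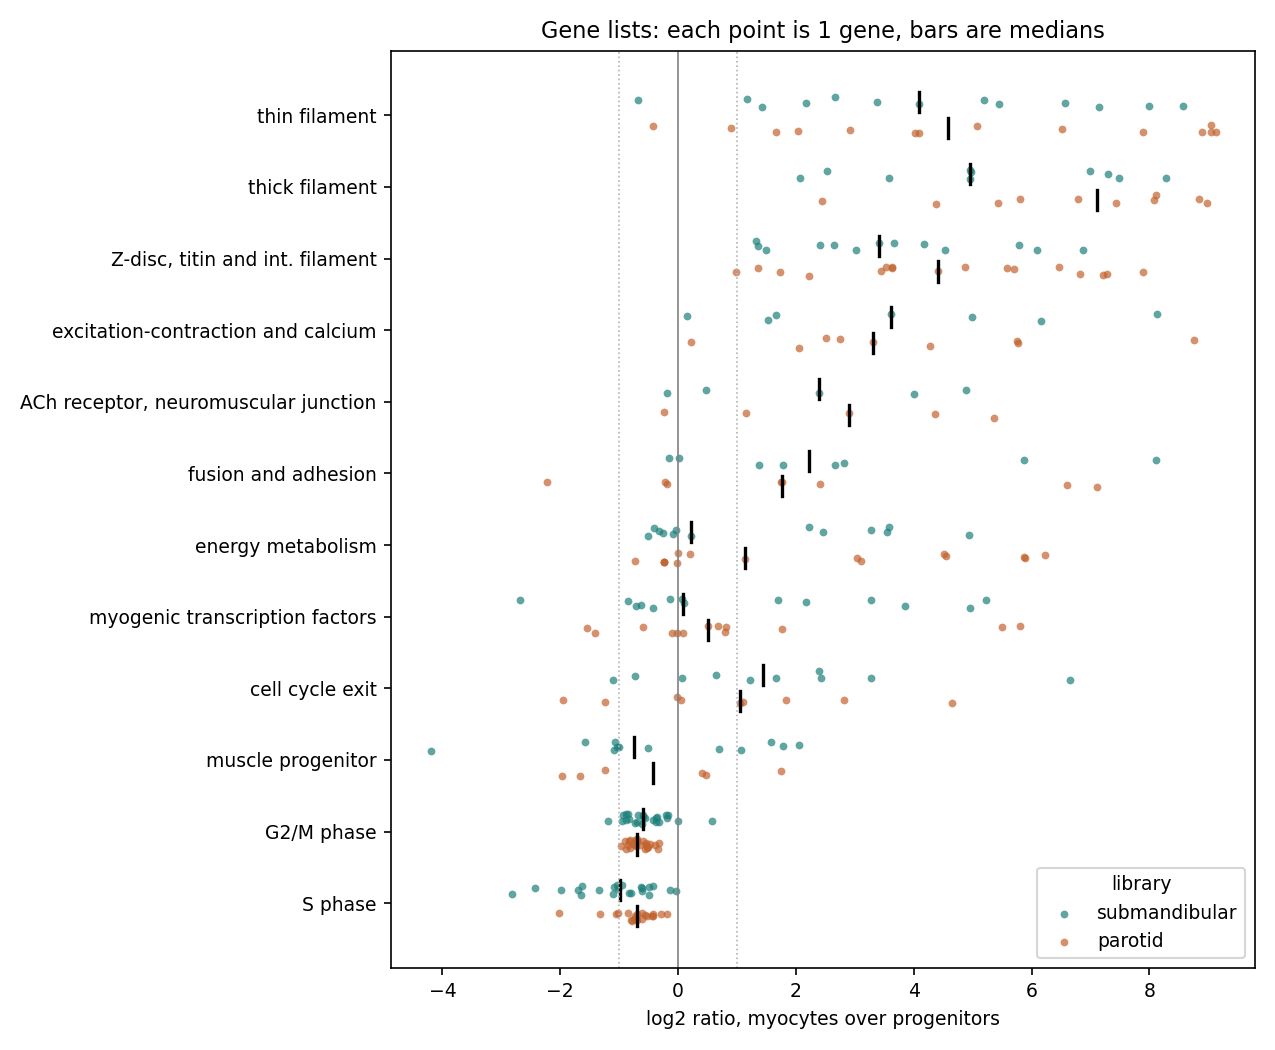
Log2 ratio of CPM, myocytes over progenitors, for the members of 12 gene lists with a mean of at least 20 CPM; each point is 1 gene in the submandibular or the parotid library, black bars are list medians, and dotted lines mark 2-fold. The sarcomere lists have medians from 3.41 to 7.11, which the filter on the mean partly fixes, and the S phase list lies below 0 with medians of -0.99 and -0.69.

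For the lists below, a member counts as measured at a mean of at least 20 CPM over myocytes and progenitors. A member at 13.3 CPM or less in progenitors could pass only through the myocytes and then had to be at least 2-fold higher, so counts and medians of the measured members describe the lists and support nothing. The same holds the other way for a member at 13.3 CPM or less in myocytes. The call was fixed in this way for 7 of 13 thin filament, 9 of 10 thick filament and 7 of 13 Z-disc genes in the submandibular library, and for 9 of 14, 8 of 10 and 12 of 17 in the parotid one. It was also fixed for 5 of 7 calcium genes and 3 of 5 receptor and junction genes in the submandibular library, and for 7 of 9 and 3 of 5 in the parotid one. In the energy, fusion and cell cycle exit lists it was fixed as higher for 4 of 13, 2 of 8 and 3 of 10 submandibular and for 6 of 15, 2 of 8 and 1 of 9 parotid genes. Among myogenic transcription factors it was fixed as higher for 4 of 14 submandibular and 2 of 13 parotid genes, and as lower for 1 of the 14. In the growth factor list it was fixed as higher for 2 of 14 and 2 of 12. In the head muscle list 1 of 9 submandibular genes was fixed as higher and 2 of 10 parotid genes as lower. In the muscle progenitor list 1 of 12 submandibular genes was fixed as higher and 1 of 6 parotid genes as lower. Where it was not fixed, 5 of 6 thin filament, 1 of 1 thick filament and 6 of 6 Z-disc genes were at least 2-fold higher in submandibular myocytes, and 3 of 5, 2 of 2 and 4 of 5 in parotid myocytes.

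Most measured thin filament genes were at least 2-fold higher in myocytes. Of 17 listed, 13 had a mean of at least 20 CPM in the submandibular library and 14 in the parotid one; 12 in each were at least 2-fold higher in myocytes and 0 lower. Of all genes at that level, 7.54% were higher and 6.59% lower in the submandibular library, and 5.97% and 3.25% in the parotid library. These shares are the ones to set beside the counts of every list that follows. The median log2 ratio of the thin filament list was 4.08 and 4.58. Tnnc1 stood at 618 CPM in myocytes and 1.64 CPM in progenitors of the submandibular library (378-fold higher, 67.5 to 14975), and at 1719 CPM in myocytes and 7.21 CPM in progenitors of the parotid library (238-fold higher, 129 to 498). Tnni1, slow troponin I, was at 695 CPM in myocytes and 0 CPM in progenitors of the submandibular library (at least 142-fold higher), and at 1205 CPM in myocytes and 2.16 CPM in progenitors of the parotid library (557-fold higher, 190.3 to 2704), where the submandibular ratio counts 0 progenitor UMIs as 3 over the class, as do all ratios given as at least so many fold. Progenitors of both libraries lay far below the myocytes for both genes. Acta1 stood at 463 CPM in myocytes and 0 CPM in progenitors of the submandibular library (at least 94.5-fold higher), and at 1716 CPM in myocytes and 3.61 CPM in progenitors of the parotid library (476-fold higher, 204 to 1467). Tnnc2, fast troponin C, was at 416 CPM in myocytes and 1.64 CPM in progenitors of the submandibular library (254-fold higher, 45.3 to 10088), and at 1144 CPM in myocytes and 2.16 CPM in progenitors of the parotid library (528-fold higher, 180.5 to 2566). The ubiquitous tropomyosin Tpm3, named after its value was seen, lay below the progenitors' level, at 111 CPM in submandibular myocytes and 178 in progenitors, and 192 CPM in parotid myocytes and 258 in progenitors, within 2-fold in both. Acta2, the smooth muscle actin that young skeletal muscle also makes, had 2946 CPM in myocytes and 656 CPM in progenitors of the submandibular library (4.49-fold higher, 4.03 to 5.02) and 2619 CPM in myocytes and 824 CPM in progenitors of the parotid library (3.18-fold higher, 2.97 to 3.4).

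Of 18 thick filament genes listed, 10 were measured in each library and those 10 were at least 2-fold higher in myocytes, with median log2 ratios of 4.96 and 7.11. Mylpf stood at 2059 CPM in myocytes and 13.1 CPM in progenitors of the submandibular library (157-fold higher, 79.6 to 365), and at 4476 CPM in myocytes and 16.6 CPM in progenitors of the parotid library (269.8-fold higher, 179.6 to 426). Myh3, the embryonic myosin heavy chain, was at 294 CPM in myocytes and 1.64 CPM in progenitors of the submandibular library (179.6-fold higher, 31.8 to 7132), and at 364 CPM in myocytes and 0.721 CPM in progenitors of the parotid library (505-fold higher, 90.2 to 19989). Myl4, the embryonic and atrial light chain, was at 509 CPM in myocytes and 1.64 CPM in progenitors of the submandibular library (311-fold higher, 55.5 to 12334), and at 1247 CPM in myocytes and 7.21 CPM in progenitors of the parotid library (173-fold higher, 93.7 to 361). Myl1, the fast alkali light chain, had 837 CPM in submandibular myocytes and 6.54 in progenitors, and 1989 CPM in parotid myocytes and 7.21 in progenitors. Embryonic and fast isoforms were thus found side by side, and slow Myh7, named after its value was seen, was also detected, at 50.6 CPM in submandibular myocytes and 1.64 in progenitors, and 45.2 CPM in parotid myocytes and 0 in progenitors. For several of these genes the progenitors held 1 to 3 UMIs in all, so the upper ends of the intervals are wide.

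Of 26 genes of the Z-disc, titin and the intermediate filament, 13 were measured in the submandibular library and 17 in the parotid one. At least 2-fold higher were 13 of 13 in submandibular and 16 of 17 in parotid myocytes, with medians of 3.41 and 4.41. Cryab, a small chaperone of the Z-disc, was at 191 CPM in myocytes and 1.64 CPM in progenitors of the submandibular library (117-fold higher, 20.5 to 4649.7), and at 344 CPM in myocytes and 1.44 CPM in progenitors of the parotid library (238-fold higher, 65.5 to 1973). Actn2, the alpha-actinin of the Z-disc, was at 179.5 CPM in myocytes and 3.27 CPM in progenitors of the submandibular library (54.9-fold higher, 14.8 to 459), and at 322 CPM in myocytes and 2.16 CPM in progenitors of the parotid library (149-fold higher, 50.6 to 725). The 1 parotid gene within 2-fold was Des, which encodes the intermediate filament protein desmin. Its RNA was present in progenitors of both libraries, with 414 CPM in submandibular myocytes and 147 in progenitors, and 486 CPM in parotid myocytes and 246 in progenitors. Klhl41, a nemaline myopathy gene, had 111 CPM in submandibular myocytes and 1.64 in progenitors, and 113 CPM in parotid myocytes and 0.721 in progenitors. Myoz2, a calcineurin-binding Z-disc protein gene, had 62 CPM in submandibular myocytes and 0 in progenitors, and 81.7 CPM in parotid myocytes and 0.721 in progenitors.

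Calcium handling and synapse genes were among those higher in myocytes. Of 20 excitation-contraction and calcium genes, 7 were measured in the submandibular library and 9 in the parotid one, with 6 and 8 called higher, with medians of 3.62 and 3.31. Sln, sarcolipin, the small inhibitor of the calcium pump, was at 457 CPM in myocytes and 1.64 CPM in progenitors of the submandibular library (279-fold higher, 49.7 to 11073), and at 625 CPM in myocytes and 1.44 CPM in progenitors of the parotid library (433-fold higher, 119.6 to 3586). Its target Atp2a1, the fast-muscle calcium pump, was at 117 CPM in myocytes and 1.64 CPM in progenitors of the submandibular library (71.8-fold higher, 12.5 to 2876), and at 117 CPM in myocytes and 2.16 CPM in progenitors of the parotid library (54.3-fold higher, 18.2 to 266), while the general pump Atp2a2, named after its value was seen, was at 47.3 CPM in submandibular myocytes and 42.5 in progenitors, and 55.5 CPM in parotid myocytes and 47.6 in progenitors. Casq2, a calcium store protein gene, was at 60.4 CPM in submandibular and 117 CPM in parotid myocytes, and at 0 in progenitors of both. Of 12 acetylcholine receptor and neuromuscular junction genes, 5 were measured in each library, with 3 higher in submandibular and 4 in parotid myocytes and 0 lower. Chrna1, the alpha subunit of the muscle receptor, was at 242 CPM in myocytes and 8.18 CPM in progenitors of the submandibular library (29.5-fold higher, 12.4 to 92.3), and at 206 CPM in myocytes and 10.1 CPM in progenitors of the parotid library (20.4-fold higher, 12 to 37.9). Chrng, the subunit of the fetal receptor, had 78.3 CPM in submandibular myocytes and 4.91 in progenitors, and 59.5 CPM in parotid myocytes and 1.44 in progenitors. Rapsn, which clusters the receptor, differed less, with 122 CPM in submandibular myocytes and 88.3 in progenitors, and 166 CPM in parotid myocytes and 75 in progenitors.

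Tmem8c and Gm7325, both genes of membrane fusion, were at or near 0 in progenitors. Tmem8c, which encodes the fusion protein myomaker, was at 286 CPM in submandibular and 211 CPM in parotid myocytes against 0 in progenitors of both libraries (at least 58.2-fold and at least 97.5-fold higher). Gm7325, which encodes its partner myomixer, was at 454 CPM in myocytes and 1.64 CPM in progenitors of the submandibular library (277-fold higher, 49.4 to 10994), and at 199.98 CPM in myocytes and 1.44 CPM in progenitors of the parotid library (139-fold higher, 38 to 1151). Both proteins are needed for myoblasts to fuse. In the whole list of 18 fusion and adhesion genes, 8 were measured in each library; 6 were at least 2-fold higher and 0 lower in submandibular myocytes, and 5 higher and 1 lower in parotid myocytes. The 1 lower gene was Cdh2, N-cadherin, at 11.1 CPM in parotid myocytes and 51.9 CPM in parotid progenitors, named after its value was seen. Jam3, a junction adhesion molecule gene, was at 173 CPM in submandibular myocytes and 24.5 in progenitors, and 149.98 CPM in parotid myocytes and 44 in progenitors, and Ncam1 at 93 CPM in submandibular myocytes and 14.7 in progenitors, and 73 CPM in parotid myocytes and 13.7 in progenitors. In the dystrophin complex 1 gene of 13 was measured in each library, Dag1 in the submandibular (within 2-fold) and Sgcb in the parotid library (at least 2-fold higher), both named after their values were seen.

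Among 19 myogenic transcription factors and cofactors, 6 of 14 measured were at least 2-fold higher and 1 lower in submandibular myocytes, and 3 of 13 higher and 2 lower in parotid myocytes, with medians of 0.09 and 0.51. Mef2c, which works with Myog on muscle genes, was at 367 CPM in myocytes and 9.81 CPM in progenitors of the submandibular library (37.4-fold higher, 16.9 to 103), and at 391 CPM in myocytes and 8.66 CPM in progenitors of the parotid library (45.2-fold higher, 25.6 to 88.1). Smyd1, a myosin chaperone and histone methyltransferase that also stands in the thick filament list, had 50.6 CPM in submandibular myocytes and 1.64 in progenitors, and 80.9 CPM in parotid myocytes and 1.44 in progenitors. Vgll2, a cofactor of TEAD proteins, was at 117 CPM in submandibular myocytes and 8.18 in progenitors, and 122 CPM in parotid myocytes and 69.2 in progenitors, so 2-fold was reached in the submandibular library only; the difference between libraries was not tested. Eya1, a transcriptional coactivator and phosphatase gene, was lower in both, at 8.16 CPM in submandibular myocytes and 52.3 in progenitors, and 24.6 CPM in parotid myocytes and 72.1 in progenitors. Id1, Id2 and Id3, inhibitors of Myod1 and Myog proteins, and Srf lay within 2-fold in both libraries and were named after their values were seen.

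Genes listed for muscle progenitors differed in both directions. Of 18, 12 were measured in the submandibular library (4 at least 2-fold higher, 6 lower in myocytes) and 6 in the parotid library (1 higher, 3 lower), with medians of -0.75 and -0.42. Msc, musculin, a repressor in head muscle progenitors, was at 35.9 CPM in myocytes and 661 CPM in progenitors of the submandibular library (18.4-fold lower, 12 to 29.7), and at 65.9 CPM in myocytes and 258 CPM in progenitors of the parotid library (3.92-fold lower, 3.08 to 5.04). Sdc1, a cell surface proteoglycan gene, was at 27.7 CPM in submandibular myocytes and 57.2 in progenitors, and 24.6 CPM in parotid myocytes and 58.4 in progenitors. Msc had a UMI in 6 of 47 submandibular and 29 of 83 parotid myocytes, against 35 of 43 and 72 of 86 progenitors. Higher in myocytes in both libraries was Cdh15, M-cadherin, a muscle adhesion protein gene, at 248 CPM in submandibular myocytes and 72 in progenitors, and 160.3 CPM in parotid myocytes and 47.6 in progenitors. Gpc1 and Fgfr4, named after their values were seen, were also at least 2-fold higher in submandibular myocytes.

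Genes of head muscle and of body position, 37 in number, were mostly too low to measure: 9 passed in the submandibular library (2 higher, 4 lower in myocytes) and 10 in the parotid library (1 higher, 4 lower). All genes at that level had 7.54% higher and 6.59% lower in the submandibular library, and 5.97% and 3.25% in the parotid library. Of all 37, 12 had 0 UMIs in submandibular and 14 in parotid myocytes. Ebf1 was at 14.7 CPM in submandibular myocytes and 49.1 in progenitors, and 61.9 CPM in parotid myocytes and 123 in progenitors, and at 159 and 571 CPM in the other cells of the libraries. Isl1, a factor of pharyngeal mesoderm that was named after its values were seen, was at 47.3 CPM in submandibular myocytes and 4.91 in progenitors, and 11.1 CPM in parotid myocytes and 29.6 in progenitors, higher in myocytes of the submandibular and lower in myocytes of the parotid library. Mesenchyme markers were low in both classes. Of 8, 3 and 4 were measured, 0 and 2 of them at least 2-fold lower in submandibular and parotid myocytes. Col3a1, a fibrillar collagen gene, was at 49 CPM in submandibular myocytes and 80.1 in progenitors, and 38.1 CPM in parotid myocytes and 94.5 in progenitors, against 688 and 743 CPM in the other cells.

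Against progenitors, S phase and G2/M genes had medians below that of all genes, though few G2/M genes reached 2-fold. Of 24 S phase genes, 22 were measured in the submandibular library and 11 of them were at least 2-fold lower in myocytes, with 0 higher. For 2 of the 11 the filter fixed the call. In the parotid library 21 were measured, 4 lower and 0 higher. The medians were -0.99 and -0.69, against -0.08 and -0.14 over all genes with a mean of at least 50 CPM. Of all genes at the level of the list, 6.59% were lower in submandibular and 3.25% in parotid myocytes. The summed level of the list was 1798 CPM (1694 to 1908) in myocytes and 3150.1 CPM (3011 to 3294) in progenitors of the submandibular library. In the parotid library it was 2138 CPM (2058 to 2220.1) in myocytes and 3313 CPM (3218 to 3410.1) in progenitors. Cells were then thinned to 3000 UMIs to compare them at 1 depth. At least 5 S phase UMIs were left in 19 of 47 submandibular myocytes (40.4%, 26.4 to 55.7) against 35 of 43 progenitors (81.4%, 66.6 to 91.6), and in 39 of 82 parotid myocytes (47.6%, 36.4 to 58.9) against 76 of 86 progenitors (88.4%, 79.7 to 94.3). Without thinning, 97.9% of submandibular and 97.6% of parotid myocytes had at least 1 UMI of the list, against 100% of progenitors in both libraries. Of the 24 G2/M genes, all measured, 1 was at least 2-fold lower in submandibular myocytes and 0 in parotid myocytes, no larger shares than those of all genes, with medians of -0.60 and -0.70. The summed G2/M level was 2676 CPM in submandibular myocytes and 3978 in progenitors, and 2746 CPM in parotid myocytes and 4279 in progenitors. After thinning, at least 5 G2/M UMIs were left in 18 of 47 submandibular myocytes (38.3%, 24.5 to 53.6) against 31 of 43 progenitors (72.1%, 56.3 to 84.7). In the parotid library they were left in 37 of 82 myocytes (45.1%, 34.1 to 56.5) against 80 of 86 progenitors (93.0%, 85.4 to 97.4). The other cells had summed S phase levels of 1915 CPM in the submandibular and 2263 CPM in the parotid library. Their summed G2/M levels were 2564 and 3055 CPM. After thinning, 44.6% and 47.3% of the other cells kept at least 5 S phase UMIs, and 25.8% and 31.0% at least 5 G2/M UMIs. On each of these measures myocytes lay nearer to the other cells than to the progenitors. Gins2, of the replication helicase, was at 32.6 CPM in submandibular myocytes and 129 in progenitors, and 59.5 CPM in parotid myocytes and 107 in progenitors. Mki67, a proliferation marker, was at 34.3 CPM in submandibular myocytes and 65.4 in progenitors, and 31.7 CPM in parotid myocytes and 58.4 in progenitors. Pcna, the replication clamp, had 91.4 CPM in myocytes and 185 CPM in progenitors of the submandibular library (2.02-fold lower, 1.46 to 2.84) and 167 CPM in myocytes and 289 CPM in progenitors of the parotid library (1.73-fold lower, 1.46 to 2.06).

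More genes of cell cycle exit were higher than lower in myocytes. Of 16, 6 of 10 measured were 2-fold or more higher and 1 lower in submandibular myocytes, and 5 of 9 higher and 2 lower in parotid myocytes, with medians of 1.44 and 1.06. Cdkn1a, the cyclin-dependent kinase inhibitor p21, was at 494 CPM in myocytes and 0 CPM in progenitors of the submandibular library (at least 101-fold higher), and at 255 CPM in myocytes and 10.1 CPM in progenitors of the parotid library (25.2-fold higher, 14.8 to 46.7). It had a UMI in 38 of 47 submandibular and 49 of 83 parotid myocytes, against 0 of 43 and 6 of 86 progenitors and 0.581% and 1.30% of the other cells. Cdkn1c, the inhibitor p57, was at 7345 CPM in myocytes and 3142 CPM in progenitors of the submandibular library (2.34-fold higher, 2.22 to 2.47), and at 3793 CPM in myocytes and 542 CPM in progenitors of the parotid library (7.003-fold higher, 6.48 to 7.57). Unlike Cdkn1a it was also abundant in the other cells, at 9105 and 1546 CPM. The antiproliferative gene Btg1 was at 423 CPM in submandibular myocytes and 78.5 in progenitors, and 219.8 CPM in parotid myocytes and 62 in progenitors. The cyclin genes Ccnd2 and Ccnd1, named after their values were seen, were lower. Ccnd2 was at 89.8 CPM in submandibular myocytes and 193 in progenitors, and 54.8 CPM in parotid myocytes and 129.8 in progenitors. Ccnd1 was at 42.4 CPM in submandibular myocytes and 70.3 in progenitors, and 30.2 CPM in parotid myocytes and 117 in progenitors, past 2-fold in the parotid library only, and the difference between libraries was not tested.

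Signalling genes gave smaller groups. Hes6, a Notch antagonist that favours differentiation, was at 636 CPM in submandibular myocytes and 196 in progenitors, and 816 CPM in parotid myocytes and 242 in progenitors. The Notch target Hey1 was at 29.4 CPM in submandibular myocytes and 57.2 in progenitors, and 29.4 CPM in parotid myocytes and 77.2 in progenitors. Of 19 Notch pathway genes, 7 were measured in the submandibular library (2 higher, 3 lower) and 5 in the parotid library (1 higher, 1 lower). Of 24 growth factor and receptor genes, 14 and 12 were measured, with 3 higher in each library and 2 and 1 lower. All genes at the level of these lists had 7.54% higher and 6.59% lower in the submandibular library, and 5.97% and 3.25% in the parotid library. Fst, follistatin, which binds and blocks myostatin, was at 232 CPM in myocytes and 13.1 CPM in progenitors of the submandibular library (17.7-fold higher, 8.75 to 41.8) and at 64.3 CPM in myocytes and 2.89 CPM in progenitors of the parotid library (22.3-fold higher, 8.37 to 83.7). Mstn, myostatin itself, was at 44.1 CPM in submandibular myocytes and 9.81 in progenitors, and 39.7 CPM in parotid myocytes and 0.721 in progenitors. A growth inhibitor and its antagonist were thus both higher in the same class of cells. Igfbp5 was lower in both libraries, at 104 CPM in submandibular myocytes and 257 in progenitors, and 22.2 CPM in parotid myocytes and 53.4 in progenitors.

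Of 22 energy metabolism genes, 6 of 13 measured were 2-fold or more higher in submandibular and 8 of 15 in parotid myocytes, and 0 were lower in either. For this and the next lists, all genes at that level had 7.54% higher and 6.59% lower in submandibular myocytes. In parotid myocytes the shares were 5.97% and 3.25%. Pgam2, muscle phosphoglycerate mutase, was at 150.13 CPM in submandibular myocytes and 4.91 in progenitors, and 256 CPM in parotid myocytes and 4.33 in progenitors, and Cox6a2, the muscle cytochrome oxidase subunit, was at 58.7 CPM in submandibular myocytes and 0 in progenitors, and 127 CPM in parotid myocytes and 0 in progenitors. Fabp3, a fatty acid carrier, was at 57.1 CPM in submandibular myocytes and 0 in progenitors, and 163 CPM in parotid myocytes and 2.16 in progenitors. General glycolysis genes such as Gapdh and Aldoa, named after their values were seen, lay within 2-fold. Among 20 RNA-binding and splicing genes, 4 of 14 measured were higher and 1 lower in submandibular myocytes, and 2 of 13 higher and 1 lower in parotid myocytes. Rbm24, a muscle splicing regulator, was at 178 CPM in submandibular myocytes and 4.91 in progenitors, and 56.3 CPM in parotid myocytes and 4.33 in progenitors, and Ptbp1, a repressor of muscle exons, at 47.3 CPM in submandibular myocytes and 114 in progenitors, and 62.7 CPM in parotid myocytes and 149 in progenitors. Of 14 imprinted and noncoding genes in the files, 12 were measured, 2 and 3 of them higher and 0 lower. Meg3, an imprinted noncoding RNA, was at 2285 CPM in submandibular myocytes and 433 in progenitors, and 1439.5 CPM in parotid myocytes and 132 in progenitors. Genes of the immediate early and heat shock response, which tissue dissociation can set off, had 2 of 13 higher and 1 lower in submandibular and 1 of 14 higher and 0 lower in parotid myocytes. Hspb1, a small heat shock protein gene that also stands in the thick filament list, was among the higher ones in both. Of 27 markers of epithelium, endothelium, blood, neural crest, macrophages and cartilage, 1 was measured in the submandibular library, Alas2, a haem synthesis gene, which was lower in myocytes, and 0 in the parotid library. The 7 haemoglobin genes were all lower in submandibular and all higher in parotid myocytes, with medians of -5.18 and 4.38. Without the haemoglobin-rich and endothelium-marked cells named above, the 7 genes lay within 2-fold in both libraries. The 6 sex-linked genes had 3 and 2 measured, 0 of them called either way. Of 9 heart and smooth muscle markers, 2 of 3 and 1 of 2 measured were higher, Acta2 in both and Tagln in the submandibular library.

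How the myocytes varied among themselves was described along Actc1 UMIs per 10000 UMIs, with the 23 submandibular and 41 parotid cells above the library's median as higher-Actc1 myocytes and the other 24 and 42 as lower-Actc1 myocytes. The limit divides a range and not types: it lay between 33.5 and 34.1 in the submandibular and between 25.03 and 26.5 in the parotid library. Median depth was 11260.0 UMIs in higher-Actc1 and 14060.0 in lower-Actc1 submandibular cells, and 13364 and 16437.5 in the parotid cells. Most sarcomere RNA was in the higher-Actc1 cells. The summed thick filament list stood at 9037 CPM in higher-Actc1 and 454 CPM in lower-Actc1 submandibular myocytes, and at 20482 and 294 CPM in the parotid myocytes. Mylpf stood at 4361 CPM in higher-Actc1 and 93.8 CPM in lower-Actc1 myocytes of the submandibular library (46.5-fold, 32.6 to 68.7) and at 10008 CPM in higher-Actc1 and 99.5 CPM in lower-Actc1 myocytes of the parotid library (101-fold, 79.5 to 129). Acta1 stood at 978 CPM in higher-Actc1 and 24.2 CPM in lower-Actc1 myocytes of the submandibular library (40.4-fold, 20.2 to 94.5) and at 3882 CPM in higher-Actc1 and 2.84 CPM in lower-Actc1 myocytes of the parotid library (1366-fold, 378 to 11283), where 2 cells of the lower-Actc1 parotid myocytes held 1 UMI each. Sln was at 981 CPM in higher-Actc1 and 9.08 CPM in lower-Actc1 submandibular myocytes, and at 1416 and 0 CPM in the parotid myocytes. Lower-Actc1 myocytes therefore had Myog and Actc1 with little RNA of Acta1, Sln and the thick filament list. The sum of the thin filament list, Actc1 left out, fell less steeply. That list summed to 16877 CPM in higher-Actc1 and 4605 CPM in lower-Actc1 submandibular myocytes, against 2169 CPM in progenitors. In the parotid library it summed to 27446 and 3970.2 CPM, against 2377 CPM in progenitors. By the median of its measured genes the fall was nearly that of the thick filament list. The median log2 ratios, higher-Actc1 over lower-Actc1, were 3.37 for thin and 3.81 for thick filament genes in the submandibular library. In the parotid library they were 5.20 and 5.49. The Z-disc list summed to 765 and 691 CPM in lower-Actc1 submandibular and parotid myocytes, against 352 and 425 CPM in progenitors. Chrna1 was also mostly in higher-Actc1 cells. It was at 443 and 69.6 CPM in higher-Actc1 and lower-Actc1 submandibular myocytes and at 411 and 44.1 CPM in the parotid ones. Myod1 and Des were spread more evenly. Myod1 was at 960.0 CPM in higher-Actc1 and 514 CPM in lower-Actc1 submandibular myocytes, and at 893 CPM in higher-Actc1 and 526 CPM in lower-Actc1 parotid myocytes. Des was at 563 CPM in higher-Actc1 and 287 CPM in lower-Actc1 submandibular myocytes, and at 744 CPM in higher-Actc1 and 281 CPM in lower-Actc1 parotid myocytes.

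Cell cycle genes had the opposite order along Actc1. The summed S phase list stood at 719 CPM (624 to 825) in higher-Actc1 and 2720.0 CPM (2545 to 2904) in lower-Actc1 submandibular myocytes, and at 675 CPM (609 to 747) and 3295 CPM (3162 to 3432) in the parotid myocytes. The lower-Actc1 values are near those of the progenitors. At 3000 UMIs per cell, at least 5 S phase UMIs were left in 3 of 23 higher-Actc1 and 16 of 24 lower-Actc1 submandibular myocytes, and in 4 of 40 and 35 of 42 parotid myocytes. The G2/M list stood at 1885 CPM in higher-Actc1 and 3352 CPM in lower-Actc1 submandibular myocytes, and at 1487 CPM in higher-Actc1 and 3741 CPM in lower-Actc1 parotid myocytes. Cdkn1a was at 953 CPM in higher-Actc1 and 103 CPM in lower-Actc1 myocytes of the submandibular library (9.26-fold, 6.47 to 13.7) and at 544 CPM in higher-Actc1 and 25.6 CPM in lower-Actc1 myocytes of the parotid library (21.3-fold, 13.2 to 36.4). A Cdkn1a UMI was found in 22 of 23 higher-Actc1 and 16 of 24 lower-Actc1 submandibular myocytes, and in 41 of 41 and 8 of 42 parotid ones. Pax7 was found in 0 of 23 higher-Actc1 and 5 of 24 lower-Actc1 submandibular myocytes and in 0 of 41 and 12 of 42 parotid myocytes. Msc was found in 0 of 23 and 6 of 24, and in 1 of 41 and 28 of 42. A UMI of the fusion gene Tmem8c was found in 9 of 24 lower-Actc1 submandibular and 5 of 42 lower-Actc1 parotid myocytes, against 0.194% and 0.172% of the other cells, and one of Gm7325 in 17 of 24 and 9 of 42, against 0.215% and 0.392%. The other cells had the lower depth given above.

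**Figure D3:**
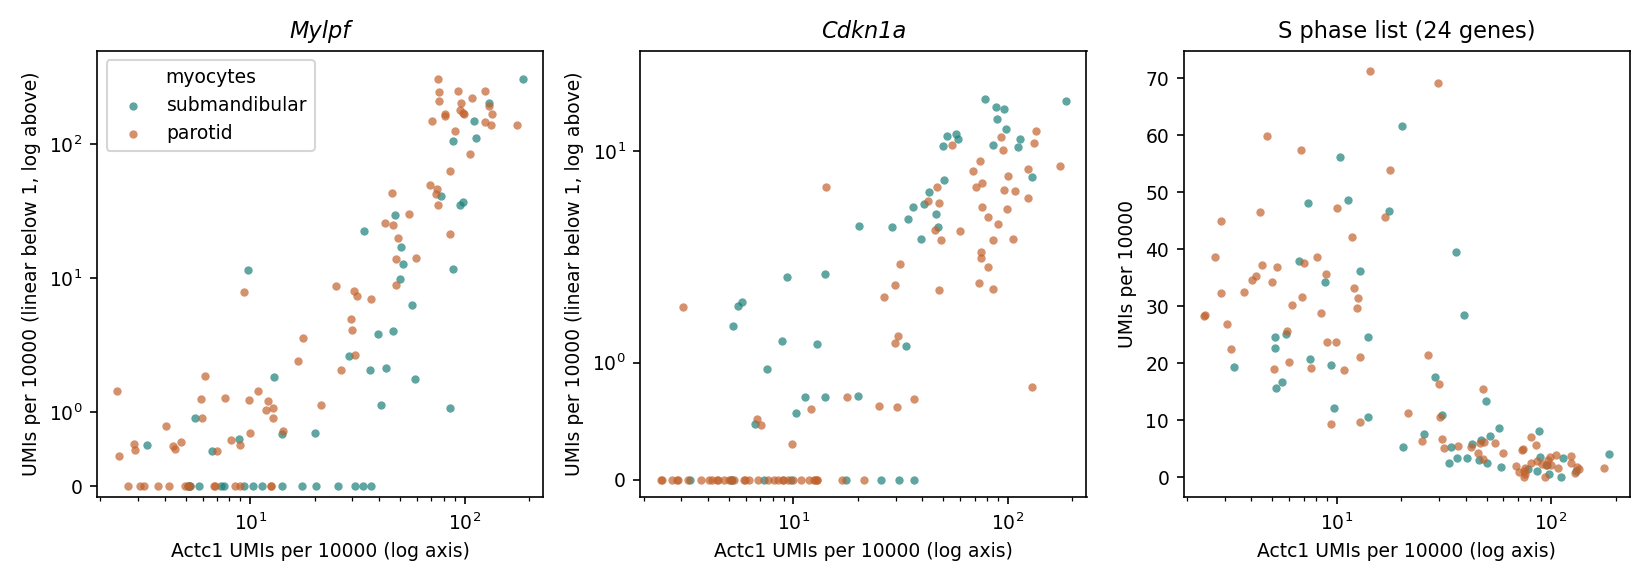
Mylpf, Cdkn1a and the summed S phase list against Actc1 in each myocyte, all as UMIs per 10000 UMIs of the cell; x axes are log, the Mylpf and Cdkn1a axes linear below 1 and log above, and each point is 1 cell of the submandibular or parotid library. Mylpf and Cdkn1a are high at the right and S phase UMIs at the left, with list levels of 719 CPM in higher-Actc1 and 2720.0 CPM in lower-Actc1 submandibular cells.

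Whether myocytes differ between the glands was asked by comparing submandibular with parotid myocytes. Each gland has 1 library, so gland and library cannot be told apart. Several sarcomere genes were at least 2-fold lower in submandibular myocytes, and Kcnq1ot1, Gadd45g and Tsc22d1 were at least 2-fold higher. Malat1, Cdkn1a and Cdkn1c were higher by less than 2-fold. Of 2529 genes that reached a mean of 50 CPM, 32 were 2-fold or more higher in submandibular myocytes (1.27%) and 40 were 2-fold or more lower (1.58%). Lower were Acta1, with 463 CPM in submandibular and 1716 CPM in parotid myocytes (3.7-fold lower, 3.27 to 4.21), and Tnnc1, with 618 CPM in submandibular and 1719 CPM in parotid myocytes (2.78-fold lower, 2.49 to 3.11). Few cells carried the Acta1 values: 5 of the 47 submandibular myocytes held 259 of the 284 UMIs and 1 of them held 119, while 5 of the 83 parotid myocytes held 1119 of 2163. Without the cell with most Acta1 UMIs in each library, Acta1 was at 282 CPM in submandibular and 1487 CPM in parotid myocytes (5.28-fold lower, 4.50 to 6.23). For Tnnc1, 5 submandibular cells held 318 of 379 and 5 parotid cells 843 of 2166 UMIs. Tnnc2, Myl4 and Myl1 followed, 2.75-fold, 2.45-fold and 2.38-fold lower, and Car3, the muscle carbonic anhydrase, with 131 CPM in submandibular and 284 CPM in parotid myocytes (2.18-fold lower, 1.7 to 2.81). Actc1 and Myog chose the cells, so their levels are a description. Actc1 was at 3918 CPM in submandibular and 3777 CPM in parotid myocytes and Myog at 3375 and 2439 CPM. Of the thin filament list, 0 of 15 measured were at least 2-fold higher and 4 lower in submandibular myocytes (median log2 ratio -0.54). Of the thick filament list, 0 of 11 were higher and 4 lower (median -0.68), and of the Z-disc list 0 of 18 were higher and 3 lower (median -0.33). Over all 4788 genes at that level, 3.17% were higher, 2.21% lower and the median was 0.04.

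The glands are set side by side along the range of Actc1 as a description, since Actc1 chose the cells. Among higher-Actc1 myocytes, which held Actc1 at 7099 CPM in submandibular and 7558 CPM in parotid cells, Acta1 was at 978 CPM in submandibular and 3882 CPM in parotid cells (3.97-fold lower), Tnnc1 at 1321 CPM in submandibular and 3866 CPM in parotid cells (2.93-fold lower) and Mylpf at 4361 CPM in submandibular and 10008 CPM in parotid cells (2.29-fold lower). An Acta1 UMI was found in 10 of 23 higher-Actc1 submandibular and 27 of 41 higher-Actc1 parotid myocytes. Among lower-Actc1 myocytes Actc1 was at 1201 CPM in submandibular and 785 CPM in parotid cells (1.53-fold higher). Several other sarcomere genes rested on few UMIs there, with 8 in submandibular and 2 in parotid cells for Acta1, 8 and 3 for Myl4, 7 and 3 for Tnnc2, 11 and 5 for Tnni1 and 6 and 14 for Tnnc1. A single submandibular cell held 6 of the 8 Acta1, 7 of the 8 Myl4, 6 of the 7 Tnnc2, 4 of the 6 Tnnc1 and 19 of the 31 Mylpf UMIs, so no order between glands is read for these genes in lower-Actc1 cells. Car3 was lower in submandibular myocytes in both parts of the range, at 138 CPM in submandibular and 266 CPM in parotid higher-Actc1 cells and at 124 CPM in submandibular and 299 CPM in parotid lower-Actc1 cells.

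Higher in submandibular myocytes were Kcnq1ot1, an imprinted antisense RNA of the Cdkn1c locus, with 397 CPM in submandibular and 101 CPM in parotid myocytes (3.93-fold higher, 3.16 to 4.92), Gadd45g, a stress and growth arrest gene, with 307 CPM in submandibular and 97.6 CPM in parotid myocytes (3.14-fold higher, 2.49 to 3.98), and, under 2-fold, Cdkn1c, with 7345 CPM in submandibular and 3793 CPM in parotid myocytes (1.94-fold higher, 1.86 to 2.02). Kcnq1ot1, Cdkn1c and the regulator Tsc22d1 were also higher in the progenitors and in the other cells of the submandibular library. Kcnq1ot1 was at 189.7 CPM in submandibular and 64.2 CPM in parotid progenitors and at 629 and 128 CPM in the other cells. Cdkn1c was at 3142 and 542 CPM in progenitors and at 9105 and 1546 CPM in the other cells. Tsc22d1 was at 289 and 113 CPM in myocytes, at 306 and 154 CPM in progenitors and at 1738 and 325 CPM in the other cells. The same order was thus found in all 3 classes of cells, and how much of the myocytes' value is free RNA was not tested. Without the cell with most Tsc22d1 UMIs in each library, Tsc22d1 was at 206 CPM in submandibular and 109 CPM in parotid myocytes, 1.89-fold higher and so under 2-fold. Cdkn1a was at 494 CPM in submandibular and 255 CPM in parotid myocytes (1.94-fold higher, 1.65 to 2.28), at 0 and 10.1 CPM in progenitors and at 1.03 and 2.74 CPM in the other cells. Gadd45g was at 8.18 and 18.8 CPM in progenitors and at 22.3 and 15.1 CPM in the other cells. Malat1, a nuclear noncoding RNA, was at 6381 CPM in submandibular and 3198 CPM in parotid myocytes (1.995-fold higher, 1.91 to 2.09), just under 2-fold, and at 12266 and 13997 CPM in the other cells. The sex-linked list summed to 473 CPM in submandibular and 130.1 CPM in parotid myocytes and to 474 and 90.9 CPM in progenitors. The sex of the pooled embryos is not given, and its part in the gland difference was not tested. Cell cycle exit genes had a median gland log2 ratio of 0.78, with 1 of 10 at least 2-fold higher in submandibular, and S phase genes of -0.35, with 0 of 20 higher and 2 lower. Over all genes at that level 3.17% were higher and 2.21% lower in submandibular myocytes, with a median of 0.04.

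**Figure D4:**
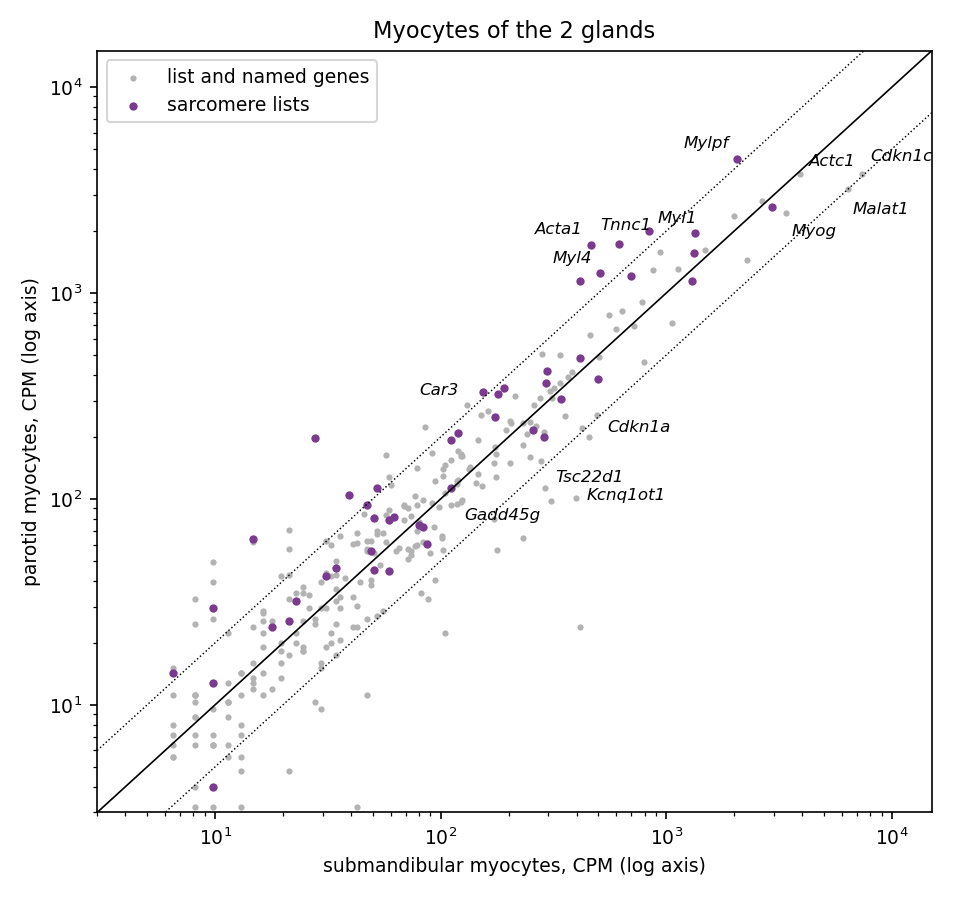
CPM in submandibular myocytes (x axis, log) against parotid myocytes (y axis, log) for the genes of the lists and the named genes with at least 4 UMIs in both, haemoglobin genes left out; purple points are sarcomere lists, the solid line is equality and dotted lines are 2-fold. Acta1, Tnnc1, Myl4 and Myl1 lie above the upper dotted line and Actc1, a gene of the rule, is at 3918 CPM in submandibular and 3777 CPM in parotid myocytes.

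The promoters shown above were set against those of all genes. Of the 84 genes at least 2-fold higher in myocytes of both libraries, 64 had a promoter in the RefSeq table. CAGCTG was found in 22 of the 64 (34.4%) and in 16.3% of all 32817 promoters, and the general E-box CANNTG, which includes it, in 47 (73.4%) and in 72.3%. TATAAA was in 9 (14.1%) and in 8.32% of all, and the CArG box in 1 of the 64 (1.56%), Acta1, and in 1.63% of all. Actc1 is a rule gene and was not counted among the 84. Of the 12 highest genes, 10 had a promoter and 5 of those held CAGCTG. A match is a description of the letters in a window of 300 bases, and binding was not measured.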

How the data were processed

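Cells were measured by droplet single-cell RNA sequencing in 4 libraries, 1 per tissue and gland. The deposited matrices hold UMI counts per gene and barcode for 27998 genes, made by the authors with Cell Ranger 2.1.1 on mm10, per the submitters' processing notes, and no normalization had been applied. Doublet removal before deposit is not given in the sources used here. Kept barcodes had 500 or more genes and no more than 10% of UMIs from mitochondrial genes, and were classed by the rule. Members, gene lists and comparisons were chosen with earlier results of these data known. UMIs were summed per class and library and divided by the class total to give CPM. Intervals at 95% were exact Poisson for CPM, conditional binomial for ratios and Clopper-Pearson for shares, and cover counting error only. The precision follows from 612798 and 1260148 UMIs summed over submandibular and parotid myocytes and 611411 and 1386398 over progenitors.

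Genes with a mean of at least 50 CPM in the groups compared entered the counts, and list members with at least 20 CPM entered the list medians. A gene was called at 2-fold. The 5 rule genes (Myog, Actc1, Myf5, Myod1 and Pax7) were left out of counts, and a class at 0 UMIs was counted as 3 UMIs over the class. Named genes were the 12 highest and 12 lowest by the smaller ratio of both libraries at a mean of at least 100 CPM, the 6 highest and 6 lowest between glands at a mean of at least 200 CPM, and the 4 members of each list with the largest mean log2 ratio by size. One gene that this rule names is not reported here. Haemoglobin, mitochondrial, ribosomal protein, sex-linked, immediate early and unnamed genes were kept out of the ranked genes, though not out of the lists. Gene positions came from GENCODE vM21 for 27722 genes matched by Ensembl ID, and promoters from RefSeq. Scripts ran in python 3.11.15 with numpy 2.4.6, scipy 1.17.1, pandas 2.3.3 and matplotlib 3.10.9, and were tested on simulated data. Alternatives used TMM from edgeR 4.0.16 in R 4.3.3 and Scrublet in scanpy 1.11.5. Scrublet called 0 of 4842 submandibular and 0 of 4421 parotid barcodes and so did not work, and doublets were kept. An alternative left out the 188 and 156 barcodes with the highest scores, which held 0 and 2 myocytes and 2 and 5 progenitors.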

Additional observations from a re-analysis of the deposited data

Results flagged for a closer look

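Myocytes lay above progenitors in one library and below them in the other, by at least 2-fold each way, for 8 genes. The difference between libraries was not tested. Of these, 7 were haemoglobin genes. As log2 ratios of myocytes over progenitors in the submandibular and then the parotid library, Hbb-bs had -4.52 and 2.03, Hbb-bt -3.53 and 1.02, and Hbb-bh1 -6.14 and 5.77. Hbb-y had -4.80 and 3.61, and Hba-x -6.92 and 4.38. Hba-a1 had -5.18 and 4.67, and Hba-a2 -5.50 and 4.78. A single submandibular progenitor with 70.6% and a single parotid myocyte with 45.6% haemoglobin UMIs held most of this RNA. Without the cells that carry markers of another type, Hba-a1 was at 0.20 and 0.02, Hbb-y at -0.21 and -0.14, and Hba-x at -0.99 and -0.34 in the same order.

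The other gene was Isl1, a transcription factor of pharyngeal mesoderm, at 3.27 in the submandibular library and -1.41 in the parotid one. It kept these directions without the cells that carry other markers, at 2.95 and -1.37, and among higher-Actc1 myocytes alone, at 4.17 and -1.23. With cells thinned to 3000 UMIs, 5 Isl1 UMIs were left in 30 submandibular myocytes and 0 in 12 progenitors, and the value of -0.58 there comes from counting 0 as 3 UMIs.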

How the results depend on the processing

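No paired analysis was possible because each group had 1 library, and no replicate could be left out. In the counts that follow, a value could reverse only where the main value was at least 2-fold either way. A change of sign of a smaller main value is not counted as reversed. List medians stayed when within a fixed band on the log2 scale, not within counting error. Of the log2 ratios of named genes, 2423 values over the alternatives stayed within counting error of the main ones, 365 moved and 15 reversed. Of the list medians 584 stayed, 101 moved and 5 reversed. Of the gland ratios of the 12 named genes and Mylpf, 113 stayed, 52 moved and 4 reversed, all 4 with lower-Actc1 myocytes only, a setting chosen after the data had been seen: Acta1 at 3.09, Myl4 at 2.505, Tnnc2 at 2.31 and Myl1 at 0.72. Acta1, Myl4 and Tnnc2 rest there on 8, 8 and 7 submandibular and 2, 3 and 3 parotid UMIs. Leaving out in each library the cell with most UMIs of the gene, also chosen then, kept every direction and put Tsc22d1 at 0.92, under 2-fold. For Acta1, Tnnc1, Tnnc2, Myl4, Myl1, Mylpf and Car3 that cell held a larger share of the submandibular than of the parotid UMIs. Their direction could therefore not reverse in this setting, and its being kept supports nothing. The cause of the changes below was not tested. The main shares were 0.971% and 1.88%, and the summed log2 ratios -0.81 and -0.63 for S phase and -0.57 and -0.64 for G2/M, each in the submandibular and then the parotid library.

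With a minimum of 1000 genes and a 5% limit on mitochondrial UMIs the submandibular share was 1.39%, the submandibular G2/M ratio -0.29, and the parotid S and G2/M ratios -0.53 and -0.57. With an Actc1 minimum of 3 UMIs the parotid S ratio was -0.50 and 9 genes were lower in both libraries. With a minimum of 10 the parotid share was 1.49%, 126 genes were lower in the parotid library and 48 in both, the parotid S and G2/M ratios were -0.93 and -0.98 and the submandibular G2/M ratio -0.79. With a Myog minimum of 2, 65 genes were lower in the parotid library, at S and G2/M ratios of -0.72 and -0.79. With a progenitor minimum of 1 UMI the submandibular S and G2/M ratios were -0.65 and -0.37 and Junb was at -0.070. With a minimum of 4, 176 genes were lower in the submandibular library, the G2/M ratios were -0.77 and -0.72 and submandibular Hbb-bs was at 0.49.

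With cells thinned to 3000 UMIs before the rule the shares were 0.643% and 1.10%. Genes called higher were 343 and 315 and lower 480 and 443, with 115 lower in both, and 197 were higher in submandibular and 196 in parotid myocytes. The S ratios were -1.44 and -1.43 and the G2/M ratios -0.73 and -1.70. In that setting 30 submandibular myocytes and 12 progenitors were left. The values of Ak1 at -0.32 and of Chrng, Mstn and Isl1 at -0.58 changed sign because 0 progenitor UMIs were counted as 3, against 6 UMIs of Ak1 and 5 of each other gene in myocytes, so they show no change of direction. Submandibular Wdr43, at 0.26, had 9 UMIs in myocytes and 3 in progenitors, and parotid Hbb-bt, at -0.97, had 3 and 5. With means of per-cell CPM the parotid S and G2/M ratios were -0.79 and -0.73. With TMM they were both -0.48, with 24 genes lower in the parotid library and 8 in both, and the median over all genes was -0.00 and 0.02 between classes and -0.10 between glands.

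At a mean of at least 20 CPM, 372 and 281 genes were higher and 325 and 153 lower, 185 higher and 44 lower in both, and 152 higher in submandibular and 106 in parotid myocytes. At 200 CPM these were 38 and 32, 12 and 3, 23 and 2, and 6 and 17, and the parotid medians were -0.23 for fusion and -0.022 for energy genes. At 3-fold, 78 were higher and 20 lower in the submandibular and 3 lower in the parotid library, 52 higher and 1 lower in both, and 10 higher in submandibular and 15 in parotid myocytes.

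Chosen after the data had been seen, leaving out the cells with markers of another type put submandibular Hbb-bs at 0.56, the parotid haemoglobin median at -0.14, and parotid Hba-x, Hbb-bs and Hbb-y at -0.34, -0.21 and -0.14. With higher-Actc1 myocytes only, 291 and 267 genes were higher and 340 and 326 lower, 188 higher and 196 lower in both, and 73 higher in submandibular and 78 in parotid myocytes. The S ratios were -2.13 and -2.29, the G2/M ratios -1.08 and -1.52, the submandibular median of other cell types' markers 4.57, the parotid haemoglobin median -0.13, and parotid Hba-x, Hbb-bs and Hbb-y -0.50, -0.29 and -0.13. Of the 53 endothelium marker UMIs in submandibular myocytes, 1 cell held 50, and its part in the median of 4.57 was not tested.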
